A study of Mus musculus with 13 samples.

Results

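The genes described here are 8 costimulatory ligands and receptors of antigen-presenting cells, Cd80, Cd86, Cd40, Icosl, Cd70, Tnfsf4, Tnfsf9 and Cd200. They were chosen by name, as molecules through which a dendritic cell (DC) signals to or is signaled by a T cell, and all 8 were found among the 24532 genes of the deposited tables. RNA was sequenced from 7 subsets sorted out of bone marrow cultures of C57BL/6 mice aged 8 to 14 weeks, in 13 libraries with 46042095 to 71330242 reads assigned to genes. FL-BM culture was bone marrow grown for 8 to 10 days with 10 µg/ml of FLT3L, a growth factor of conventional DCs (cDCs), and GM-BM culture was bone marrow grown for 8 to 10 days with 0.5 µg/ml of GM-CSF, a growth factor of myeloid cells. FL-BM culture gave non-DCs (CD115+ CX3CR1+ cells of the cDC2 gate, 2 libraries), immature FL-cDC2s (2), mature FL-cDC2s (2), immature FL-cDC1s (2) and mature FL-cDC1s (1), and GM-BM culture gave GM-DCs (2) and GM-Macs (2). The labels name no stimulus beyond the growth factor. FL-cDCs were sorted as CD115- CX3CR1- cells and called mature where they were CD83+ and immature where they were CD83-, while GM-DCs and GM-Macs are told apart by MHC class II and CD11b (high MHC class II and intermediate CD11b in GM-DCs, the reverse in GM-Macs). The study counts GM-DCs with the CD83+ subsets and GM-Macs and non-DCs with those that lack CD83, and the Cd83 transcript was at 1452 to 1535 FPKM in GM-DCs and 45.1 to 112 FPKM in GM-Macs. Whether the 2 libraries of a subset came from separate mice or cultures is not said in the sources used here, so the spread behind each p-value is that between libraries and may be technical.

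A T cell needs a second signal beside recognition of peptide on MHC, and DCs supply it in the course of maturation. The B7 proteins CD80 and CD86 bind CD28, which activates T cells, and CTLA-4, which restrains them, and another B7 protein, ICOS ligand, binds ICOS on activated T cells. The TNF superfamily ligands CD70, OX40 ligand (Tnfsf4) and 4-1BB ligand (Tnfsf9) bind CD27, OX40 and 4-1BB and prolong the T cell response. CD40 works in the other direction, as the receptor on the DC for CD40 ligand of T cells, and CD200 is an inhibitory ligand that quiets myeloid cells through the CD200 receptor.

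Levels are given in FPKM, read counts scaled to transcript length and library total, so that levels of different genes can be compared, and differences between subsets are log2 fold changes of read counts with their standard error (SE). Adjusted p-values are two-sided values of the quasi-likelihood test of edgeR, adjusted over all genes tested by the Benjamini-Hochberg method, with a threshold of 0.05. In the sums of marker genes, 8 mature DC markers came to 11119 to 17909 FPKM in the CD83+ libraries and to 29.2 to 812 FPKM in the CD83- libraries, and 10 macrophage and monocyte markers to 42342 to 76233 FPKM in the macrophage-like subsets (non-DCs, GM-Macs) and to 53.0 to 4491 FPKM in the others. The 6 cDC2 markers were lower in mature FL-cDC2s (54.6 to 75.5 FPKM) than in immature FL-cDC2s (638 to 670 FPKM). They came to 750 to 811 FPKM in non-DCs and 432 to 861 FPKM in GM-Macs. The paper concludes that the non-DCs are precursors of cDC2s. The 6 cDC1 markers reached 143 FPKM in mature FL-cDC1s and 338 to 422 FPKM in immature FL-cDC1s. In the single mature FL-cDC1 library, 6 of 8 B cell markers were at 1 FPKM or more (0 to 3 in the other subsets), but their sum (38.001 FPKM) lay within the range of the other libraries (1.42 to 43.1 FPKM, highest in immature FL-cDC2s). Cd79a was at 14.8 FPKM there and did not exceed 1.16 FPKM elsewhere, while Cd79b (7.84 FPKM) and Fcrla (2.52 FPKM) reached 39.7 and 5.03 FPKM in other libraries. The gate of the study for FL-cDCs takes B220- cells, which leaves out most B cells, and the part of these transcripts in the values of mature FL-cDC1s was not tested. In sorted bulk RNA, fewer expressing cells and less RNA per cell cannot be told apart.

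Across the 13 libraries, 3 of the 8 genes (Cd40, Cd70 and Cd200) were higher in every one of the 5 CD83+ libraries than in any of the 8 CD83- libraries, and 0 of 8 were lower in all of them. Of the 12002 genes that reached 1 FPKM in some library, 6.23% separated the libraries in the upward and 3.78% in the downward direction. The other 5 genes overlapped, and the subset with the highest mean differed between genes: it was GM-DCs for Cd80, Cd86 and Tnfsf4, mature FL-cDC2s for Cd40, Icosl and Cd200, and mature FL-cDC1s for Cd70 and Tnfsf9. CD83 was used in the sort of FL-cDCs, so these levels are a description of the sorted cells.

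**Figure D1:**
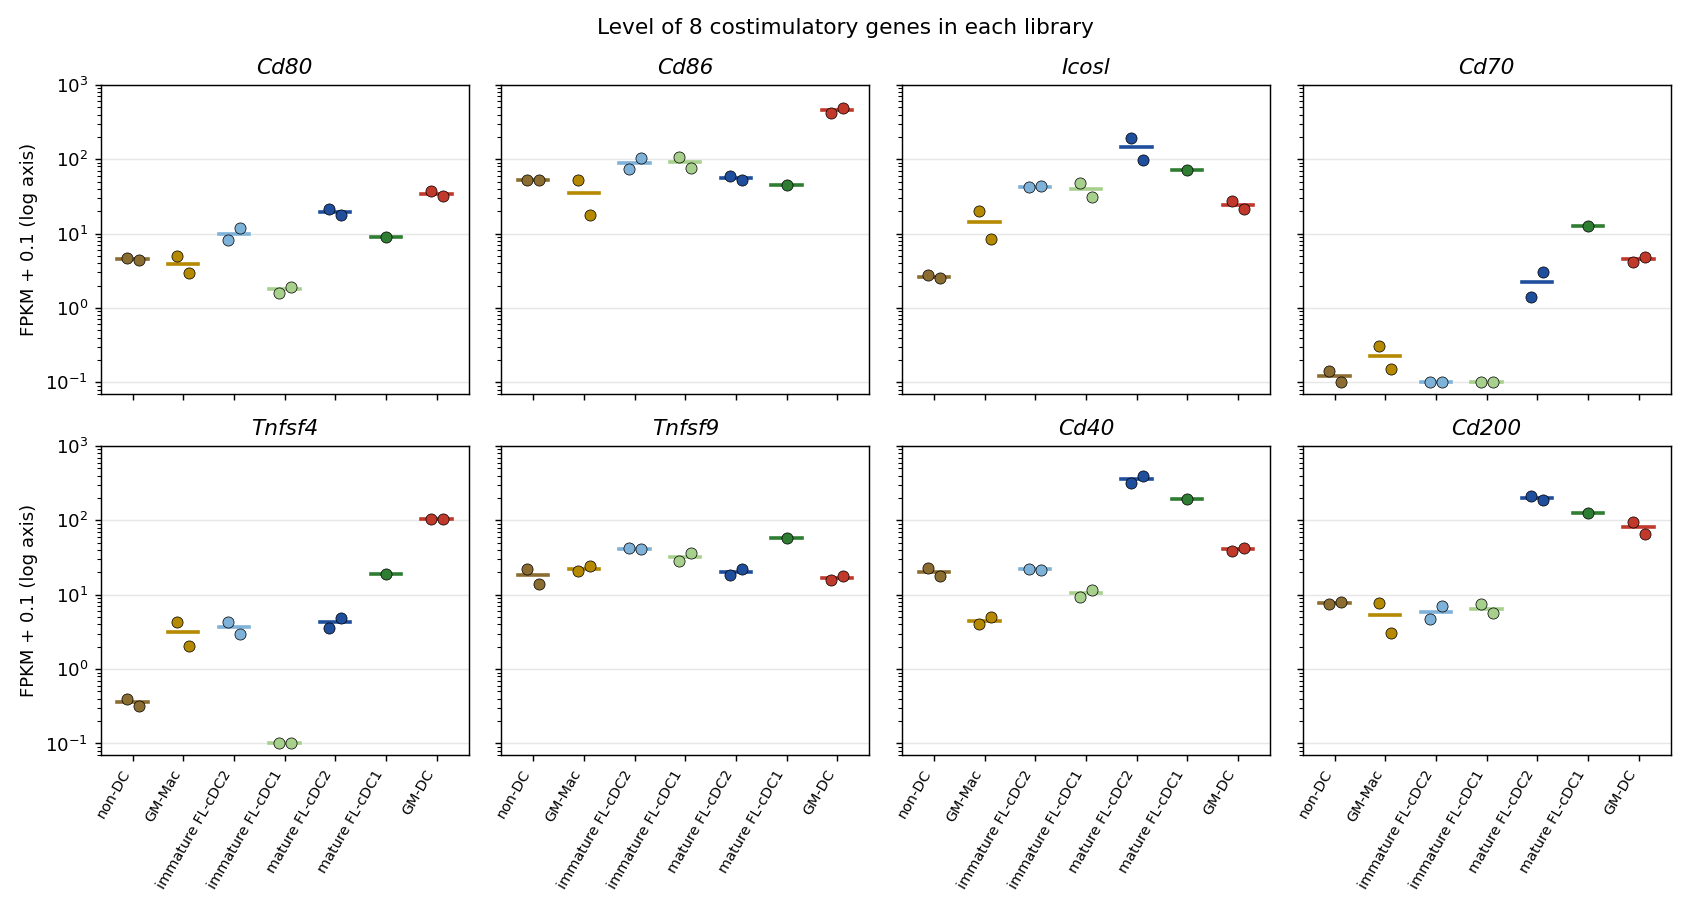
Level of each of the 8 genes in every library, as FPKM + 0.1 on a log axis, by subset. Each point is 1 library and each bar the mean of the subset. Cd40, Cd70 and Cd200 lie higher in the 5 libraries of the 3 CD83+ subsets (at the right of each panel) than in all 8 others, Cd86 and Tnfsf4 are highest in GM-DCs (418 and 495 FPKM, 105 and 105 FPKM), and Tnfsf9 has the narrowest range.

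Among the B7 ligands, Cd80 (Entrez gene 12519, chromosome 16 from 38457430 to 38495958, plus strand, in RefSeq GRCm38.p6) was at 37.0 and 31.8 FPKM in the 2 GM-DC libraries, at 21.2 and 18.0 FPKM in mature FL-cDC2s and at 8.99 FPKM in mature FL-cDC1s. Immature FL-cDC2s had 8.08 and 11.8 FPKM, and Cd80 was at 4.53 and 4.27 FPKM in non-DCs, at 4.89 and 2.82 FPKM in GM-Macs and at 1.51 and 1.83 FPKM in immature FL-cDC1s. GM-DCs and mature FL-cDC2s thus stood higher than all other libraries, the mature FL-cDC1 library lay between the 2 immature FL-cDC2 libraries, and non-DCs and GM-Macs overlapped. Cd80 was higher in mature than in immature FL-cDC2s by 1.39 ± 0.27 (log2 fold change ± SE, adjusted p = 0.00428, edgeR), in mature than in immature FL-cDC1s by 2.34 ± 0.39 (adjusted p = 0.00247) and in GM-DCs than in GM-Macs by 2.93 ± 0.37 (adjusted p = 0.00505).

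Cd86 (Entrez gene 12524, chromosome 16 from 36568956 to 36666158, minus strand) did not follow Cd80. It was at 418 and 495 FPKM in GM-DCs, within the top 1% of genes with a read there, and between 17.6 and 106 FPKM in the other 11 libraries. The immature FL-cDC1s (106 and 76.9 FPKM) and immature FL-cDC2s (74.5 and 105 FPKM) came next and overlapped each other, followed by mature FL-cDC2s (60.3 and 52.8 FPKM), non-DCs (52.4 and 53.1 FPKM), mature FL-cDC1s (44.8 FPKM) and GM-Macs (52.4 and 17.6 FPKM). The 2 GM-Mac libraries stood 3-fold apart, and every mature FL-cDC library lay below every immature one. Cd86 was higher in GM-DCs than in GM-Macs by 3.50 ± 0.56 (adjusted p = 0.00894, edgeR), while the change from immature to mature was -0.26 ± 0.23 in FL-cDC2s (adjusted p = 0.396) and -1.08 ± 0.51 in FL-cDC1s (adjusted p = 0.156). In FL-cDC2s the change passed as lower when counts were scaled to library size alone and turned to 0.073 without immature FL-cDC2 replicate 2.

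The ratio of Cd86 to Cd80 FPKM was 2.85 and 2.94 in mature FL-cDC2s and 4.98 in mature FL-cDC1s. GM-DCs had ratios of 11.3 and 15.6, immature FL-cDC2s of 8.94 and 9.22, and immature FL-cDC1s of 42.0 and 70.0. Non-DCs had 11.6 and 12.4, between the values of GM-DCs, and GM-Macs 10.7 and 6.25. March1, the ubiquitin ligase that removes CD86 from the cell surface and that CD83 opposes, fell from 32.4 and 40.9 FPKM in immature to 0.19 and 0.09 FPKM in mature FL-cDC2s, by 7.56 ± 0.40 on the log2 scale (adjusted p = 8.52e-06, edgeR). It fell from 16.2 and 15.2 FPKM in GM-Macs to 0.71 and 2.12 FPKM in GM-DCs (log2 fold change -3.68 ± 0.57, adjusted p = 0.00819), and was at 9.44 FPKM in mature and 37.8 and 19.5 FPKM in immature FL-cDC1s (log2 fold change -1.64 ± 0.63, adjusted p = 0.0891). March8, a related ligase that also acts on CD86, went the other way in FL-cDC2s, from 0.41 and 1.03 FPKM in immature to 2.02 and 1.33 FPKM in mature cells (1.66 ± 0.44, adjusted p = 0.0159, edgeR), and this call was lost without mature FL-cDC2 replicate 1. It was at 12.6 and 12.3 FPKM in GM-DCs and 17.8 and 11.1 FPKM in GM-Macs (-0.46 ± 0.31, adjusted p = 0.354). These are transcript levels, and the surface staining of CD86 in the study was not analysed here. By that staining, the paper reports more CD86 on cells of mature phenotype within the cDC gates of FL-BM culture than on the others. Those others include non-DCs beside immature FL-cDCs. The Cd86 transcript was not called higher in mature than in immature FL-cDCs, unlike the staining, and the reason was not tested. For GM-DCs over GM-Macs the paper also reports more surface CD86, and there the transcript was higher too.

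Icosl (Entrez gene 50723, chromosome 10 from 78069368 to 78079525, plus strand) was at 193 and 98.4 FPKM in mature FL-cDC2s, 72.7 FPKM in mature FL-cDC1s, 41.9 and 43.4 FPKM in immature FL-cDC2s and 47.7 and 30.995 FPKM in immature FL-cDC1s. It was at 27.0 and 21.6 FPKM in GM-DCs, 19.9 and 8.48 FPKM in GM-Macs and 2.67 and 2.43 FPKM in non-DCs. Icosl was therefore higher in all 7 FL-cDC libraries than in GM-DCs, and non-DCs were the lowest, while the immature FL-cDC1 and FL-cDC2 libraries overlapped. It was higher in mature than in immature FL-cDC2s by 2.19 ± 0.31 (adjusted p = 0.000820, edgeR), with 0.84 ± 0.46 in FL-cDC1s (adjusted p = 0.211) and 0.56 ± 0.41 in GM-DCs over GM-Macs (adjusted p = 0.389). The last of these passed without GM-Mac replicate 1, at 1.27.

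The bases before the transcription start were available in RefSeq GRCm38.p6 for 3 of the 8 genes, Icosl, Cd80 and Cd200, which belong to the genes that were higher in mature FL-cDC2s. They were searched on both strands for the binding consensus of NF-κB, the factor family that CD40 and Toll-like receptors activate in maturing DCs, for the interferon response element (GAAA, any 2 bases, GAAA) and for the PU.1 core GAGGAAG. The windows are the 250 bases before a transcript start of that table, at chr10:78069118-78069367 (plus strand), chr16:38458683-38458932 (plus strand) and chr16:45409054-45409303 (minus strand), printed 5′ to 3′ with the match in capitals. The start used for Icosl is that of the gene in RefSeq. In GENCODE, another annotation, the gene begins at 78069302, inside the window, so distances given here are from the RefSeq start. The start used for Cd80 belongs to a shorter transcript and lies 1503 bases inside the gene, so that its window is within the gene as annotated. The one for Cd200 lies 7 bases inside.
Icosl: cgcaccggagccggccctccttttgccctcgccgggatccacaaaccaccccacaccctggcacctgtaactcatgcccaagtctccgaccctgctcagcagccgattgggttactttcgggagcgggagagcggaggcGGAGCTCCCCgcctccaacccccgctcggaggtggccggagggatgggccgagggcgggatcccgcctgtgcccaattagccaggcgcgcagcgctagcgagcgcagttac
Cd80: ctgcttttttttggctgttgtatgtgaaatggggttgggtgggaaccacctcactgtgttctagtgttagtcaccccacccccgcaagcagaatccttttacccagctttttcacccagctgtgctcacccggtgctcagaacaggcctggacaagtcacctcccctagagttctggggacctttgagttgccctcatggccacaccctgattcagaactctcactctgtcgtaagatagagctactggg
Cd200: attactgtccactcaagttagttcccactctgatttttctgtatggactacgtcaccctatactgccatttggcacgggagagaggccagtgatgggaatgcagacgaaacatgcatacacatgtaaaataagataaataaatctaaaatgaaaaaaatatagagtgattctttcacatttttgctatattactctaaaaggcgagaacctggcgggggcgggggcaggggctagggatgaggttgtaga
Of the 3 windows, the one of Icosl held a match to the NF-κB consensus, GGAGCTCCCC, 111 to 102 bases before the start. Of all 32851 promoter windows of this length, 7.25% held such a match, and 2.98% and 10.6% held the interferon response element and the PU.1 core, of which the 3 windows held none. The letters describe these windows and were not tested against the expression values.

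Among the TNF superfamily ligands, Cd70 (Entrez gene 21948, chromosome 17 from 57145997 to 57149777, minus strand) was nearly restricted to the CD83+ libraries. It had 604 reads in mature FL-cDC1s (12.7 FPKM), 233 and 271 reads in GM-DCs (4.06 and 4.76 FPKM) and 69 and 164 reads in mature FL-cDC2s (1.32 and 2.98 FPKM). It had 0 reads in all 4 immature FL-cDC libraries, 3 and 0 reads in non-DCs and 11 and 3 reads in GM-Macs. Against a floor of 3 reads per library, Cd70 was at least 44.1-fold higher in mature than in immature FL-cDC2s (adjusted p = 0.00215, edgeR) and at least 234-fold higher in mature than in immature FL-cDC1s (adjusted p = 0.000868). It was higher in GM-DCs than in GM-Macs by 4.70 ± 0.75 (adjusted p = 0.00887).

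Tnfsf4 (Entrez gene 22164, chromosome 1 from 161395438 to 161418206, plus strand) was at 105 and 105 FPKM in GM-DCs and at 18.7 FPKM in mature FL-cDC1s. It was at 3.51 and 4.81 FPKM in mature FL-cDC2s, 4.25 and 2.88 FPKM in immature FL-cDC2s, 4.25 and 1.97 FPKM in GM-Macs and 0.30 and 0.22 FPKM in non-DCs, and immature FL-cDC1s had 0 reads in both libraries. Mature FL-cDC2s, immature FL-cDC2s and GM-Macs overlapped, and GM-DCs exceeded every other library by more than 5-fold. Tnfsf4 was higher in GM-DCs than in GM-Macs by 4.85 ± 0.45 (adjusted p = 0.00339, edgeR) and at least 661-fold higher in mature than in immature FL-cDC1s (adjusted p = 8.74e-06), with 0.65 ± 0.36 in mature over immature FL-cDC2s (adjusted p = 0.179).

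Tnfsf9 (Entrez gene 21950, chromosome 17 from 57105287 to 57107758, plus strand) lies 38.2 kb from Cd70 and varied least, with a 3.40-fold range of subset means. It was at 57.1 FPKM in mature FL-cDC1s, 42.9 and 40.6 FPKM in immature FL-cDC2s, 28.3 and 35.9 FPKM in immature FL-cDC1s, 20.7 and 24.0 FPKM in GM-Macs, 18.1 and 22.2 FPKM in mature FL-cDC2s, 22.2 and 14.003 FPKM in non-DCs and 15.7 and 17.8 FPKM in GM-DCs. Among the last 4 of these subsets each neighbouring pair overlapped, while GM-DCs lay below GM-Macs and mature FL-cDC2s. The change from immature to mature was -0.63 ± 0.26 in FL-cDC2s (adjusted p = 0.0823, edgeR) and 0.74 ± 0.37 in FL-cDC1s (adjusted p = 0.173), and GM-DCs over GM-Macs gave -0.66 ± 0.32 (adjusted p = 0.202). In FL-cDC2s it passed as lower when counts were scaled to library size alone, at -1.05 at the lowest over the alternatives. Exons of Tnfsf9 overlap those of the noncoding gene Gm11110 on the opposite strand, which had 157 to 836 reads per library, and the sources used here do not say whether counting used strand, so the level of Tnfsf9 is uncertain to that extent.

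Cd40 (Entrez gene 21939, chromosome 2 from 165055614 to 165071654, plus strand) was at 319 and 400.5 FPKM in mature FL-cDC2s, within the top 2% of genes with a read, and at 197 FPKM in mature FL-cDC1s. It was at 39.1 and 42.5 FPKM in GM-DCs, 22.4 and 21.7 FPKM in immature FL-cDC2s, 22.8 and 17.9 FPKM in non-DCs, 9.28 and 11.4 FPKM in immature FL-cDC1s and 3.92 and 4.85 FPKM in GM-Macs. Non-DCs and immature FL-cDC2s overlapped and every other neighbouring pair of subsets was apart. Cd40 was higher in mature than in immature FL-cDC2s by 4.45 ± 0.24 (adjusted p = 9.59e-06, edgeR), in mature than in immature FL-cDC1s by 4.16 ± 0.33 (adjusted p = 2.54e-05) and in GM-DCs than in GM-Macs by 2.97 ± 0.34 (adjusted p = 0.00392).

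Cd200 (Entrez gene 17470, chromosome 16 from 45382111 to 45409060, minus strand) was at 215 and 186 FPKM in mature FL-cDC2s, 124 FPKM in mature FL-cDC1s and 96.1 and 65.6 FPKM in GM-DCs. In the 8 CD83- libraries it lay between 2.95 and 8.01 FPKM, and the range of GM-Macs (2.95 to 7.56 FPKM) overlapped that of each of the other 3 subsets. Cd200 was higher in mature than in immature FL-cDC2s by 5.53 ± 0.30 (adjusted p = 9.12e-06, edgeR), the largest change of the 8 genes there apart from Cd70, in mature than in immature FL-cDC1s by 4.22 ± 0.46 (adjusted p = 0.000175), and in GM-DCs than in GM-Macs by 3.72 ± 0.50 (adjusted p = 0.00588).

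By comparison, 5 of the 8 genes were higher in mature than in immature FL-cDC2s (Cd80, Icosl, Cd70, Cd40 and Cd200), 0 were lower (1, Tnfsf9, at an unadjusted p under 0.05 and 0 with DESeq2) and 3 did not pass, beside 22.5% of all 13242 genes tested called higher and 24.0% called lower. Their median log2 fold change was 1.79, against 0.00 over all genes. With counts scaled to library size alone, which moves the median of all genes by -0.40, the same comparison called 5 members higher and 2 lower (Cd86 and Tnfsf9), and the share of all calls that were higher went from 48.4% to 31.2%. The macrophage and monocyte markers moved with this comparison too, from 1037 and 2010 FPKM in immature to 53.0 and 53.9 FPKM in mature FL-cDC2s, and their part in these differences was not tested.

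In mature over immature FL-cDC1s, 5 of 8 genes were higher (Cd80, Cd70, Tnfsf4, Cd40 and Cd200) and 0 were lower (0 also at an unadjusted p under 0.05 and with DESeq2), beside 12.6% and 8.28% of all 14936 genes tested, with a median of 3.25 against 0.00 over all genes. The mature side is 1 library, whose spread was taken to be that of the other subsets. That library came in a deposited table apart from the immature FL-cDC1s, so maturation and table cannot be told apart here. The macrophage and monocyte markers summed to 1177 FPKM in the mature library and to 4046 and 4491 FPKM in immature FL-cDC1s, and their part in these differences was not tested. In GM-DCs over GM-Macs, 6 of 8 were higher (all but Icosl and Tnfsf9) and 0 were lower (0 also at an unadjusted p under 0.05 and with DESeq2), beside 8.71% and 10.6% of 13083 genes, with a median of 3.23 against -0.05 over all genes, and library size alone moved the higher share of all calls from 45.1% to 56.2%. The macrophage and monocyte markers summed to 1245 and 2101 FPKM in GM-DCs and to 42342 and 76233 FPKM in GM-Macs, and their part in these differences was not tested. Leaving out GM-Mac replicate 1 raised Cd86 to 4.45, Cd70 to 5.58, Tnfsf4 to 5.49 and Cd200 to 4.53 on the log2 scale, and over all libraries left out their lowest values were 2.96, 4.25, 4.47 and 3.26, each still past the threshold. Since replicate 2 of the GM subsets came in tables of their own, the difference was also read between GM-DC replicate 1 and GM-Mac replicate 1, which share a table, as a difference of TMM-scaled log2 counts. It was 2.71 for Cd80, 2.79 for Cd86, 3.10 for Cd40, 3.88 for Cd70, 4.41 for Tnfsf4 and 3.46 for Cd200, and 0.24 for Icosl and -0.60 for Tnfsf9.

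**Figure D2:**
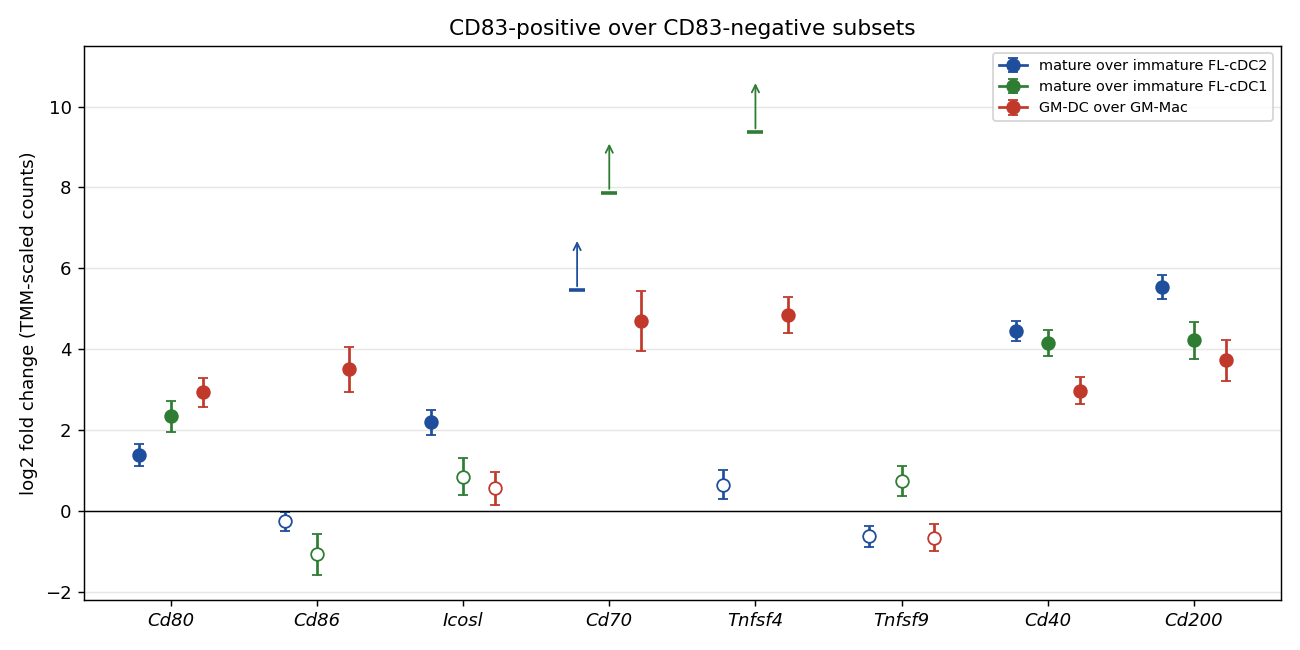
Log2 fold change of each gene in mature over immature FL-cDC2s, mature over immature FL-cDC1s and GM-DCs over GM-Macs. Points are TMM-scaled estimates with SE, filled where the adjusted p passed 0.05, and bars with an arrow are lower bounds against 0 reads (44.1- and 234-fold for Cd70, 661-fold for Tnfsf4). Cd80, Cd70, Cd40 and Cd200 were higher in all 3 comparisons, Cd86 in GM-DCs alone among the 3, and Tnfsf9 in none.

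The difference between the maturation changes of FL-cDC2s and FL-cDC1s was tested for 7 genes, since Cd70 had 0 reads in both immature subsets. Tnfsf4 alone passed, as lower, while Tnfsf9 passed as lower too with DESeq2, library size alone and the 3 limma settings on FPKM, and 0 were higher (0 also at an unadjusted p under 0.05 and with DESeq2), beside 1.03% of all genes called higher and 5.0% called lower in this contrast. Its change was 0.65 ± 0.36 in FL-cDC2s and at least 661-fold in FL-cDC1s (adjusted p of the difference = 0.000202, edgeR), and the fitted size of the difference rests on 0 reads in immature FL-cDC1s and is not a bound. The differences were -0.99 ± 0.51 for Cd80 (adjusted p = 0.317), 1.31 ± 0.62 for Icosl (adjusted p = 0.270), 1.27 ± 0.61 for Cd200 (adjusted p = 0.276), 0.25 ± 0.42 for Cd40 (adjusted p = 0.861), 0.79 ± 0.64 for Cd86 (adjusted p = 0.556) and -1.41 ± 0.48 for Tnfsf9 (adjusted p = 0.125).

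By mean FPKM, the 3 CD83+ subsets differed in which of the 8 genes were high. GM-DCs and the mature FL-cDC1 library were not tested against each other. Mature FL-cDC2s exceeded GM-DCs in Icosl by 2.74 ± 0.41 (adjusted p = 0.00116, edgeR), in Cd40 by 3.30 ± 0.29 (adjusted p = 8.97e-05) and in Cd200 by 1.47 ± 0.38 (adjusted p = 0.0217), and the call of Cd200 was lost when any 1 of the 4 libraries was left out (log2 fold change 1.25 to 1.74). GM-DCs exceeded mature FL-cDC2s in Cd86 (-2.86 ± 0.43, adjusted p = 0.00116) and in Tnfsf4 (-4.50 ± 0.41, adjusted p = 0.000132), and Cd80 (-0.66 ± 0.33), Cd70 (-0.88 ± 0.75) and Tnfsf9 (0.42 ± 0.31) did not pass. Thus 3 of 8 were higher and 2 lower in mature FL-cDC2s, beside 7.75% and 12.9% of all genes. These subsets also differ in culture and growth factor, which cannot be told apart from cell type.

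Between mature FL-cDC2s and the mature FL-cDC1 library, 0 of 8 genes were higher and 2 lower in FL-cDC2s, beside 2.63% and 6.16% of all genes, and DESeq2 also gave 0 higher. At an unadjusted p under 0.05, 2 were higher, Cd80 (1.12 ± 0.42, adjusted p = 0.131, edgeR) and Cd40 (0.87 ± 0.34, adjusted p = 0.145). Tnfsf4 was lower by 2.17 ± 0.42 on the log2 scale (adjusted p = 0.0134) and Tnfsf9 fell by 1.499 ± 0.36 (adjusted p = 0.0298). The call of Tnfsf4 was lost without mature FL-cDC2 replicate 1 and that of Tnfsf9 without either mature FL-cDC2 library, and 3 genes (Cd80, Icosl and Cd40) were called higher when only these 2 subsets entered the fit. Cd70 was at -2.55 ± 0.87 (adjusted p = 0.117), and passed as lower in that fit and in the 3 limma settings (-2.61 to -2.17).

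**Figure D3:**
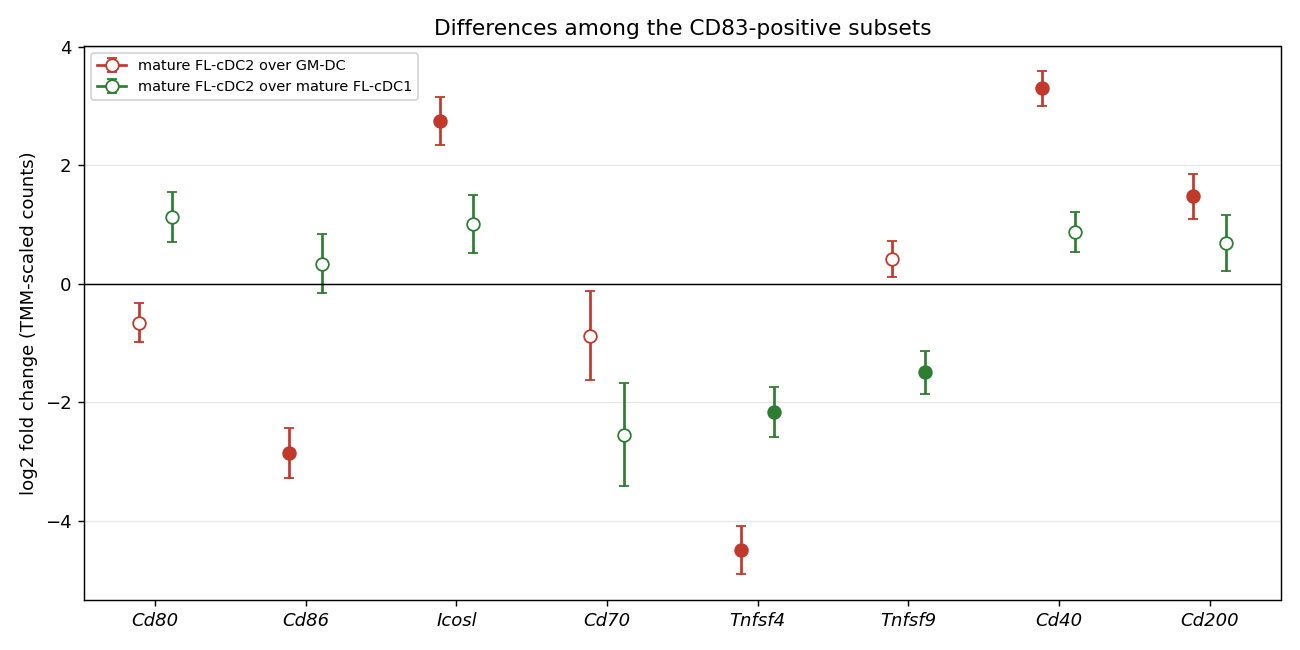
Log2 fold change of each gene in mature FL-cDC2s over GM-DCs and over the mature FL-cDC1 library, as TMM-scaled estimates with SE. Filled points passed an adjusted p of 0.05. Icosl, Cd40 and Cd200 are higher and Cd86 and Tnfsf4 lower in mature FL-cDC2s than in GM-DCs, and Tnfsf4 and Tnfsf9 are lower than in mature FL-cDC1s.

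The 8 genes summed to 832 and 786 FPKM in mature FL-cDC2s, 741 and 784 FPKM in GM-DCs and 536 FPKM in mature FL-cDC1s, and to 62.8 to 233 FPKM in the CD83- libraries. The makeup of the sum differed. Cd86 made up 56.3% and 63.1% of it in GM-DCs and 6.72% to 8.35% in mature FL-cDCs, where Cd40 made up 36.7% to 51.0% and Cd200 23.2% to 25.9%. Tnfsf4 reached 14.1% and 13.4% in GM-DCs and did not exceed 3.73% in any other library. FPKM is relative to the library, and these shares carry no test.

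**Figure D4:**
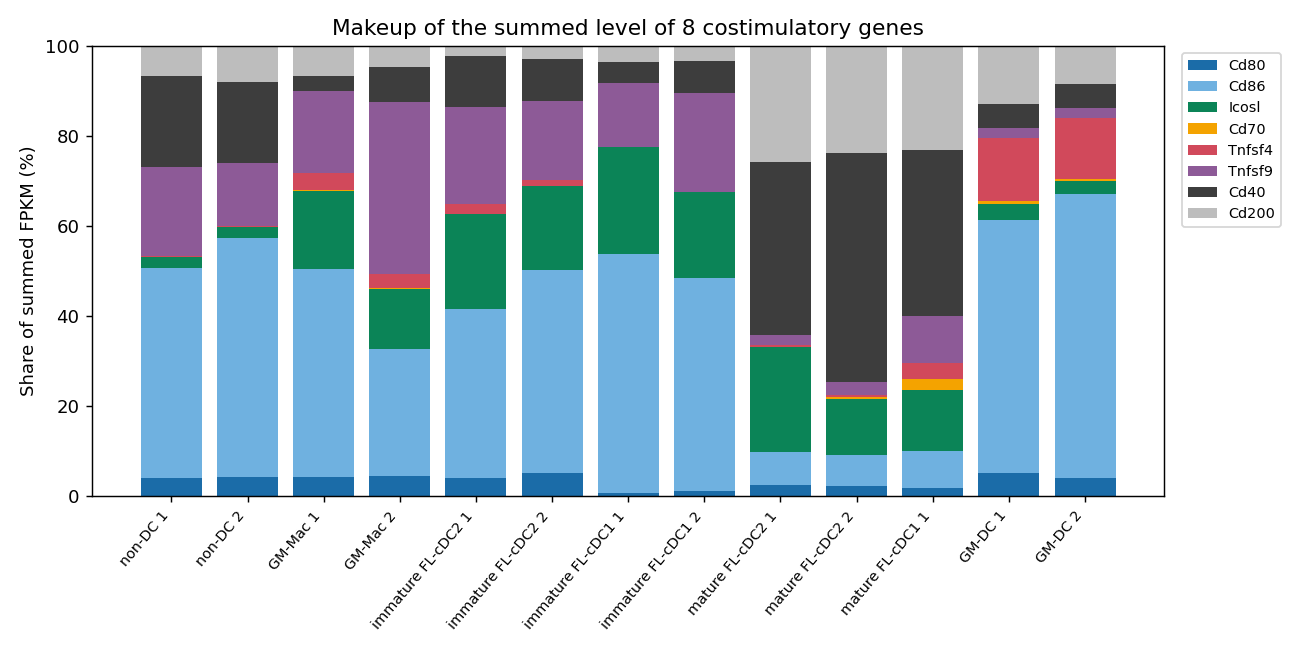
Share of each gene in the summed FPKM of the 8 genes, as stacked bars per library that add up to 100%. Cd86 takes 56.3% and 63.1% in GM-DCs and 28.1% to 53.1% in the CD83- libraries, and Cd40 with Cd200 take most of the sum in the 3 mature FL-cDC libraries.

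In the immature cells, 2 of the 7 genes that could be compared were higher in immature FL-cDC2s than in immature FL-cDC1s (Cd80 by 2.11 ± 0.34, adjusted p = 0.00242, and Tnfsf4 by at least 96.5-fold, adjusted p = 4.34e-05, edgeR) and 0 were lower (0 also at an unadjusted p under 0.05 and with DESeq2), beside 11.4% of genes higher and 8.9% lower. Library size alone moved the median of all genes by 0.44 and the higher share of all calls from 56.2% to 81.0%, and added Cd40 to the genes called higher. Cd70 had 0 reads in both.

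Against non-DCs, which came from the same culture and gate, mature FL-cDC2s were higher in 6 of 8 genes (all but Cd86 and Tnfsf9) and lower in 0 (0 also at an unadjusted p under 0.05 and with DESeq2), beside 26.4% and 27.1% of all genes. Icosl differed by 5.62 ± 0.36 (adjusted p = 1.44e-05, edgeR) and Cd70 by a ratio of 54.6 with a 95% counting interval of 18.5 to 267. The call of Cd70 was lost without mature FL-cDC2 replicate 2. Immature FL-cDC2s were higher than non-DCs in 2 of 7 genes, Icosl by 3.44 ± 0.33 (adjusted p = 0.000138) and Tnfsf4 by 3.12 ± 0.41 (adjusted p = 0.000646), and lower in Cd200, by 1.04 ± 0.25 on the log2 scale (adjusted p = 0.0111), beside 23.6% and 24.0%. The call of Cd200 was lost under 6 of its alternatives, among them the fit without non-DC replicate 2, and with library size alone 5 genes were higher and 0 lower and the higher share of all calls went from 49.6% to 75.1%.

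Non-DCs and GM-Macs, the macrophage-like cells of each culture, differed in 3 of 8 genes. Cd40 was higher in non-DCs by 2.37 ± 0.28 (adjusted p = 0.000629, edgeR), and Icosl and Tnfsf4 were lower by 2.30 ± 0.41 (adjusted p = 0.00453) and 3.39 ± 0.42 (adjusted p = 0.00109) on the log2 scale, beside 9.29% of genes higher and 11.2% lower. The call of Icosl was lost without non-DC replicate 2, Cd86 and Cd200 passed as higher without GM-Mac replicate 1 (1.65 and 1.46), and library size alone moved the higher share of all calls from 45.4% to 32.1%. Cd70 had 14 reads in GM-Macs and 3 in non-DCs, a ratio of 3.91 with a 95% counting interval of 1.09 to 21.2. That interval leaves out the spread between libraries, and Cd70 did not pass in non-DCs over GM-Macs (-1.87 ± 1.11, adjusted p = 0.267, edgeR).

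Partners of these molecules were also measured in the sorted cells. Cd28, Ctla4, Icos, Cd27, Tnfrsf4 and Tnfrsf9 encode receptors best known on T cells, and Cd40lg encodes CD40 ligand. The others were Cd200r1, Cd200r2, Cd200r3 and Cd200r4, of the CD200 receptor family of myeloid cells. In mature over immature FL-cDC2s, 3 of the 9 tested partners were higher and 6 lower (Cd200r1, Cd200r2, Cd200r3, Cd200r4, Cd27 and Cd28). In mature over immature FL-cDC1s 4 of 11 were higher and 1 lower, and in GM-DCs over GM-Macs 3 of 9 were higher and 4 lower. Of all genes tested, 22.5%, 12.6% and 8.71% were higher and 24.0%, 8.28% and 10.6% lower in these comparisons, and the 6 lower partners became 5 without either immature and 3 without either mature FL-cDC2 library. Tnfrsf4, which encodes OX40, was at 123 and 154 FPKM in mature FL-cDC2s and at 0.74 and 0.88 FPKM in immature FL-cDC2s (7.81 ± 0.28, adjusted p = 6.45e-06, edgeR), at 160.1 FPKM in mature and 0.05 and 0.14 FPKM in immature FL-cDC1s (10.53 ± 0.65, adjusted p = 6.95e-06), and at 23.1 and 39.1 FPKM in GM-DCs and 2.35 and 1.08 FPKM in GM-Macs (3.95 ± 0.52, adjusted p = 0.00550). Tnfrsf9, which encodes 4-1BB, was at 3098 and 2579 FPKM in GM-DCs, 739 and 458 FPKM in GM-Macs and 152 to 192 FPKM in mature FL-cDCs, and at 0.08 to 10.0 FPKM in the other FL-BM subsets. Its transcript was therefore far above that of its ligand Tnfsf9 in GM-DCs. Both receptors, and Icos, were higher in all 3 comparisons. Several of the other calls rest on low levels. In immature and mature FL-cDC2s, mean FPKM was 0.19 and 0 for Cd200r2, 0.17 and 0 for Cd200r3, and 0.53 and 0.0075 for Cd28. Cd28 was called higher in mature FL-cDC1s at 0.40 FPKM, against a mean of 0.019 FPKM in immature FL-cDC1s.

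Cd200r1, the inhibitory receptor for CD200, was lower in all 3 comparisons in which Cd200 was higher. It was at 0.33 and 0.32 FPKM in mature and 33.1 and 40.7 FPKM in immature FL-cDC2s (log2 fold change -6.41 ± 0.28, adjusted p = 6.64e-06, edgeR), at 2.82 FPKM in mature and 11.2 and 14.7 FPKM in immature FL-cDC1s (-2.29 ± 0.40, adjusted p = 0.00337), and at 29.0 and 36.9 FPKM in GM-DCs and 215 and 155 FPKM in GM-Macs (-2.72 ± 0.35, adjusted p = 0.00530). Cd28, the T cell receptor for CD80 and CD86, was at 14.9 to 21.0 FPKM in the 4 macrophage-like libraries and no higher than 0.79 FPKM in DCs. The T cell genes Cd3e, Cd3d and Cd3g were at most 0.53 FPKM in every library, with the highest value (Cd3e) in mature FL-cDC1s. Only that subset had reads of Cd40lg (21). Of the 8 T cell markers, Cd4, Cd5 and Lck exceeded 1 FPKM in some library (Cd4 up to 18.8 and Cd5 up to 4.75 FPKM). The 8 summed to 16.1 to 19.1 FPKM in non-DCs, where the 3 Cd3 genes had 0 reads, and to at most 0.75 FPKM in GM-Macs. Their part in the level of Cd28 was not tested.

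**Figure D5:**
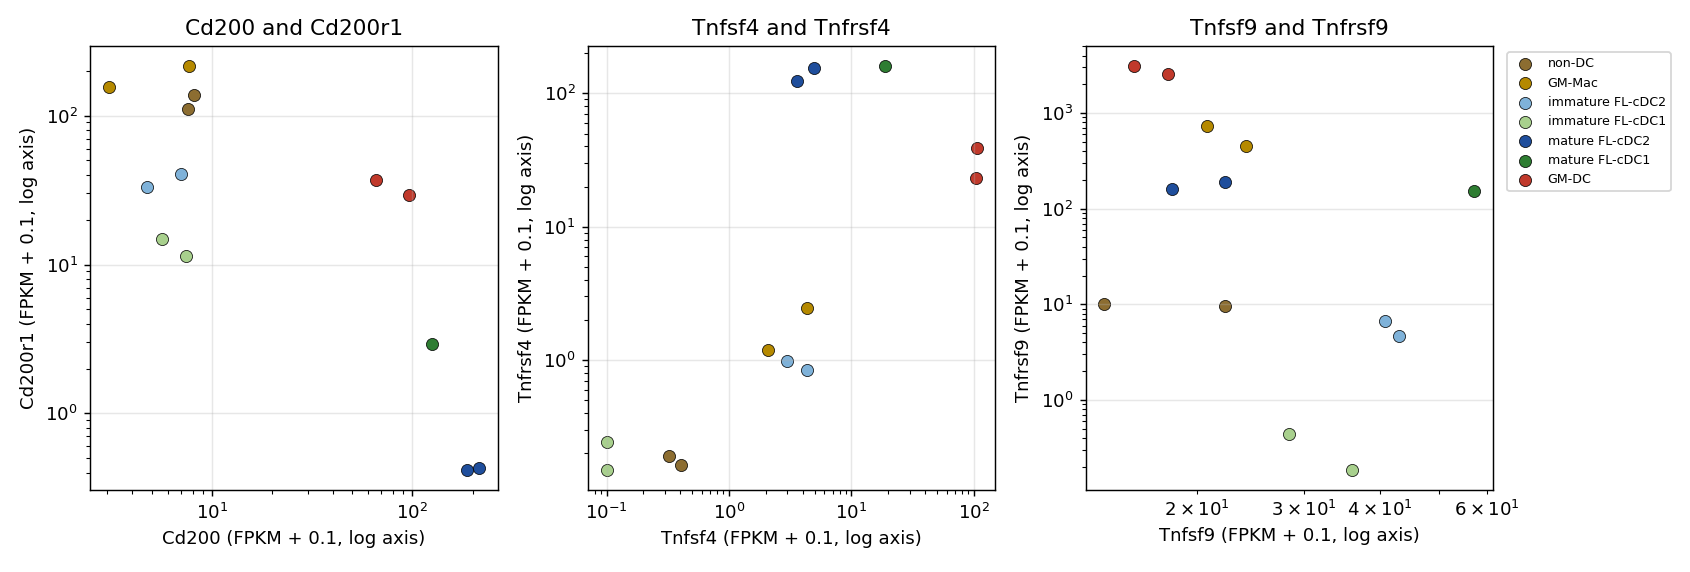
Ligand against receptor transcript in each library, both as FPKM + 0.1 on log axes, for Cd200 and Cd200r1, Tnfsf4 and Tnfrsf4, and Tnfsf9 and Tnfrsf9. Each point is 1 library, colored by subset. The 2 mature FL-cDC2 libraries combine the highest Cd200 (215 and 186 FPKM) with the lowest Cd200r1 (0.33 and 0.32 FPKM), GM-DCs have the highest Tnfsf4 and Tnfrsf9, and mature FL-cDCs the highest Tnfrsf4.

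CD40 and the TNF receptors signal through TRAF adaptors, the ligases cIAP1 and cIAP2 (Birc2 and Birc3) and the kinase NIK (Map3k14), with A20 (Tnfaip3) as an inhibitor. Of 10 such genes, 9 were higher and 0 lower in mature over immature FL-cDC2s (median 2.28), 10 and 0 in mature over immature FL-cDC1s (median 2.56), and 5 and 0 in GM-DCs over GM-Macs (median 1.499), beside 22.5% and 24.0%, 12.6% and 8.28%, and 8.71% and 10.6% of all genes, and the counts of 0 lower were 0 also at an unadjusted p under 0.05 and with DESeq2. Traf1, an adaptor that NF-κB induces, was higher by 3.92 ± 0.30 (adjusted p = 3.34e-05, edgeR), 4.96 ± 0.42 (adjusted p = 3.89e-05) and 3.49 ± 0.43 (adjusted p = 0.00481). Birc2 was higher by 4.08 ± 0.27, 3.45 ± 0.50 and 3.05 ± 0.48, and Map3k14 by 2.58 ± 0.22, 3.12 ± 0.45 and 3.02 ± 0.50. Traf3, which holds NIK in check, was higher in the FL-cDCs (0.71 ± 0.20, a call lost without replicate 2 of either FL-cDC2 subset, and 1.99 ± 0.26) and at 0.09 ± 0.31 in GM-DCs over GM-Macs (adjusted p = 0.873).

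For each gene, the transcripts whose levels ran most alike over the 13 libraries were found among 7763 other genes that reached 10 FPKM in some library, by Pearson's r of log2(FPKM + 1). Most alike were Enox2 for Cd80 (r = 0.982), Fam118a for Cd86 (0.936), Tpm1 for Cd40 (0.977), Lsp1 for Icosl (0.9505), Ndrg4 for Cd70 (0.963), Srms for Tnfsf4 (0.972), Pim2 for Tnfsf9 (0.907) and Plekhs1 for Cd200 (0.986). Irf1, a transcription factor, was among the 3 most alike Cd40 (0.969). Within the 8 genes, r was highest for Cd40 with Cd200 (0.895), Cd70 with Cd200 (0.846) and Cd80 with Tnfsf4 (0.835), was 0.603 for Cd80 with Cd86, and lay between -0.29 and 0.37 for Tnfsf9 with the others. The libraries of a subset share their sort and culture, so these values describe the 7 subsets more than 13 separate points.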

How the data were processed

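Per library and for 24532 genes, the authors deposited read counts (whole reads, not normalized) and FPKM, spread over 6 tables. The deposited FPKM are scaled to transcript length and library total. HISAT and StringTie are named in the paper, and the submitters' notes list STAR 2.6.0c, HTSeq, StringTie 1.3.4d, Trimmomatic, bcl2fastq 2.20.0 and the build mm10. The sources used here give neither settings nor strand use. Libraries were amplified by PCR without molecular identifiers, so floors (3 reads, 0.0421 to 0.0652 CPM) and intervals cover counting error only.

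Counts were tested with edgeR 4.0.16 in R 4.3.3 (filterByExpr, TMM, quasi-likelihood). The cDC2-gated subsets were fitted in 6 libraries, GM subsets in 4 and other comparisons in all 13, with a biological coefficient of variation of 25.8%, 38.3% and 35.9%. The comparisons fitted in all 13 libraries set subsets of different deposited tables against each other, so subset and table cannot be told apart there. DESeq2 1.42.0, limma 3.58.1 on log2(FPKM + 1), other scalings and fits leaving out each library were alternatives. Tests were also run on simulated counts with a common spread and few changed genes. That setting differs from these data, where many genes were called, so it cannot vouch for the scaling or the calls. Identifiers were matched to RefSeq GRCm38.p6 for 24462 genes. The genes, lists and tests were chosen with earlier results of these data known. Named genes are the 8 members, list members, sorting markers and the 3 genes most alike each member.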

Additional observations from a re-analysis of the deposited data

Results flagged for a closer look

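The maturation change of Tnfsf4 differed between FL-cDC2s and FL-cDC1s by a test of the difference itself. The fitted log2 value was -13.25 (change in FL-cDC2s minus change in FL-cDC1s, adjusted p = 0.000202, edgeR). Tnfsf4 had 356 and 264 reads in immature and 350 and 503 reads in mature FL-cDC2s, and 0 and 0 reads in immature and 1704 reads in the single mature FL-cDC1 library. The size rests on the 0 reads and on 1 mature library and is no bound. The mature and immature FL-cDC1 libraries also came in separate deposited tables, which cannot be told apart from maturation. In that library 6 of 8 B cell markers were at 1 FPKM or more (0 to 3 in other subsets), among them Cd79a at 14.8 FPKM, while their sum of 38.001 FPKM was below that of immature FL-cDC2s (38.4 to 43.1 FPKM), and their part in the difference was not tested.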

How the results depend on the processing

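Of 982 values of a gene in a comparison under an alternative, 891 kept their direction and side of the threshold, 44 passed it, 15 lost it and 32 changed sign. Values that changed sign were those of genes not called in that comparison. With library size alone and the 3 limma settings on FPKM (pseudocount 1, pseudocount 0.1, no filter), in that order, mature FL-cDC2s over non-DCs gave 0.11, 0.10, 0.10 and 0.10 for Cd86 and 0.17, 0.18, 0.19 and 0.18 for Tnfsf9, immature FL-cDC2s over non-DCs 0.12 for Cd40 in each, immature FL-cDC2s over FL-cDC1s 0.12, 0.15, 0.15 and 0.15 for Icosl and 0.38, 0.38, 0.39 and 0.38 for Tnfsf9, and the difference in maturation change -0.22, -0.17, -0.23 and -0.17 for Cd40. Under these 4 settings, 2 members were lower in mature over immature FL-cDC2s (0 in the report), 5 were higher and 0 lower in immature FL-cDC2s over non-DCs (2 and 1), and 2 were lower in the difference in maturation change (1). DESeq2 gave 2 lower in each of the last 2, and a fit of all 13 libraries gave 0 lower in immature FL-cDC2s over non-DCs. Mature FL-cDC2s over FL-cDC1s gave 1 member higher with limma without a filter and 3 with only these subsets in the fit (0). The cause of these shifts was not tested.

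Leaving out 1 library at a time, values that changed sign ranged from -0.53 to 0.073 for Cd86 in mature over immature FL-cDC2s, -0.34 to 0.31 for Tnfsf9 in mature FL-cDC2s over non-DCs, -0.18 to 0.42 for Cd86 in immature FL-cDC2s over non-DCs, -0.52 to 0.13 for Tnfsf9 in non-DCs over GM-Macs, -0.37 to 0.25 for Tnfsf9 in immature FL-cDC2s over FL-cDC1s and -0.060 to 0.51 for Cd40 in the difference in maturation change. Counts of members ranged from 0 to 1 lower in immature FL-cDC2s over non-DCs, 1 to 3 higher and 1 to 2 lower in non-DCs over GM-Macs, and 0 to 1 lower in mature FL-cDC2s over FL-cDC1s. Counts of all genes called ranged from 4721 to 5916 in mature FL-cDC2s over non-DCs (7084), 3851 to 5749 in immature FL-cDC2s over non-DCs (6309), 1599 to 4264 in GM-DCs over GM-Macs (2528), 752 to 3076 in non-DCs over GM-Macs (3057), 1582 to 1819 in mature FL-cDC2s over GM-DCs (3079), 1292 to 3568 in immature FL-cDC2s over FL-cDC1s (3034), 532 to 571 in mature FL-cDC2s over FL-cDC1s (1313) and 468 to 1022 in the difference (901). With only the subsets compared, they were 1773 for mature over immature FL-cDC1s (3120), 1912 for immature FL-cDC2s over FL-cDC1s and 3364 for mature FL-cDC2s over FL-cDC1s. DESeq2 gave 2518 for the latter and 1884 for the difference, limma 1466 to 2057 for the difference, and limma without a filter 2272 for mature FL-cDC2s over FL-cDC1s.

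Deviations of same-numbered libraries correlated between -0.16 and 0.31 over pairs of subsets. These values cannot decide whether libraries of the same number share a mouse or culture, and the main tests used no pairing. A replicate block gave 1.40 for Cd80, 4.44 for Cd40 and 5.56 for Cd200 in mature over immature FL-cDC2s, 3.66 for Cd86 and 4.93 for Tnfsf4 in GM-DCs over GM-Macs, and 5228 and 3064 genes called in these comparisons (6152 and 2528). It changed no call of a member. With 2 libraries per subset and 1 of mature FL-cDC1s, small changes, and levels of 3 reads or fewer, were not detectable at this depth.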

Other observations

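Other B7 family, butyrophilin and checkpoint genes moved in both directions. This list also holds Tnfrsf14, Btla, Lgals9, Pvr, Nectin2 and Cd47, which belong to neither of the 2 families. Of 12 tested, 4 were higher and 3 lower in mature over immature FL-cDC2s, 5 and 2 in FL-cDC1s, and 0 and 3 in GM-DCs over GM-Macs, where 22.5% and 24.0%, 12.6% and 8.28%, and 8.71% and 10.6% of all genes were higher and lower. The 0 higher in the GM subsets were 3 at an unadjusted p under 0.05 (edgeR) and 1 with DESeq2, and became 1 to 3 when any 1 of the 4 libraries was left out (3 without GM-Mac replicate 1), and the 2 lower in FL-cDC1s became 0 without immature FL-cDC1 replicate 2. Cd274, which encodes the inhibitory ligand PD-L1, was higher by 2.30 ± 0.27 (adjusted p = 0.000294, edgeR) in FL-cDC2s and by 7.44 ± 0.57 (adjusted p = 2.03e-05) in FL-cDC1s, with 0.34 ± 0.50 (adjusted p = 0.686) in GM-DCs over GM-Macs, which passed as higher without GM-Mac replicate 1 (1.33). The ligands of the receptor CD226, Pvr (2.45 ± 0.21 and 2.30 ± 0.37) and Nectin2 (2.53 ± 0.26 and 2.04 ± 0.37), were higher in both FL-cDC comparisons, and the inhibitory Vsir (-2.32 ± 0.19, -1.10 ± 0.30 and -2.13 ± 0.34) and Lgals9 (-3.74 ± 0.23, -1.59 ± 0.45 and -3.15 ± 0.47) were lower in all 3, though both calls in FL-cDC1s were lost without immature FL-cDC1 replicate 2.

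Among adhesion ligands for T cells, Icam1, the ligand of LFA-1, was higher in all 3 comparisons (3.88 ± 0.27, 2.51 ± 0.33 and 1.81 ± 0.37) and Icam2 lower in all 3 (-3.40 ± 0.44, -3.17 ± 0.95 and -4.02 ± 0.71), in the order FL-cDC2s, FL-cDC1s and GM-DCs over GM-Macs. Of 8 such genes, 2 were higher and 3 lower in FL-cDC2s, 2 and 4 in FL-cDC1s, and 3 and 1 in the GM subsets, beside the same shares of all genes. Without immature FL-cDC1 replicate 2, the 4 became 1 and the call of Icam2 there was lost, and the 3 became 5 without GM-Mac replicate 1 and the 1 became 2 without GM-Mac replicate 2. Of the other TNF superfamily ligands tested, 2 of 10, 2 of 12 and 2 of 11 were higher and 4, 1 and 3 lower in the same order. Of all genes tested, 22.5%, 12.6% and 8.71% were higher and 24.0%, 8.28% and 10.6% lower there. The 2 higher became 1 or 0 without any 1 of the FL-cDC2 libraries (0 without mature FL-cDC2 replicate 2), 1 without immature FL-cDC1 replicate 2 and 1 without GM-DC replicate 2. Tnf was lower in mature FL-cDC2s (-1.83 ± 0.27) and GM-DCs (-3.49 ± 0.41) and higher in mature FL-cDC1s (1.46 ± 0.35), each past the threshold, the last not without immature FL-cDC1 replicate 2.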
